A study of Danio rerio with 6 samples.

Results

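Pigment cells of the 48 hpf zebrafish eye were chosen by their transcripts, as barcodes with at least 1 UMI (unique molecular identifier, a tag that marks 1 captured transcript) in 3 or more of the 8 genes dct, pmela, pmelb, tyrp1a, tyrp1b, tyr, oca2 and rpe65a and with at most 1 detected of the 3 iridophore genes pnp4a, defbl1 and apoda.1. The rule found 169 pigment cells among the 17930 barcodes with 500 or more genes and 800 or more UMIs, of which no more than 10% were mitochondrial. The levels of these 11 genes chose the cells, so they are described below without a test. Only the comparison between sorts did not leave them out of the genes tested. All eyes came from F1 embryos that carried the NRE-eGFP and HS5-mCherry reporters, in which human PAX6 retinal enhancers drive the fluorescent proteins from a minimal promoter, and every embryo had been kept from 12 hpf in PTU, a compound that stops melanin from forming. Each library pooled the eyes of about 100 to 150 embryos, and no group lacked the reporters or the PTU. The 3 mCherry-enriched libraries held cells sorted by FACS (fluorescence-activated cell sorting) as mCherry-positive, with the gate for cells positive for both reporters in the first round of sorting, and the 3 eGFP-enriched libraries held cells sorted as eGFP-positive.

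Melanin is made in melanosomes, lysosome-related organelles in which tyrosinase and its relatives act on a scaffold of PMEL protein. In the zebrafish eye the retinal pigment epithelium makes it beside the photoreceptors, and melanophores derived from the neural crest make it in the tissue around the eye. The pigment epithelium is also known for the visual cycle, in which retinoids used by photoreceptors are taken up, esterified, isomerised and returned.

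The 6 libraries held between 14307132 and 86803928 UMIs over all barcodes. Only 50 of the 17930 barcodes that passed occurred in 2 or more libraries, and 1 of them was a pigment cell. The paper describes samples of both sorts from each round of sorting. The labels do not say whether an equal replicate number in both sorts marks a shared round, so numbers are used here as names. All p-values measure the spread between these pooled libraries. If both sorts of a round came from the same pool of embryos, those libraries were not independent. The main tests, also those within libraries, took no account of this. Pigment cells numbered 16 of 729, 21 of 514 and 25 of 1220 barcodes in mCherry-enriched replicates 1, 2 and 3. They numbered 70 of 12094, 3 of 371 and 34 of 3002 barcodes in eGFP-enriched replicates 1, 2 and 3. Pigment cells had a median of 3843 UMIs, against 1274 UMIs in the other barcodes, and the direction of this depth difference was not the same in all libraries. The medians were 13144, 1987 and 4427 UMIs in pigment cells of the mCherry-enriched replicates, against 2386, 2469 and 2554 UMIs in their other barcodes. In the eGFP-enriched replicates the pigment cells had medians of 6690, 1197 and 4299 UMIs and the other barcodes 1121, 1632 and 5354 UMIs.

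The genes of the rule differed in how many pigment cells held them. The melanin pathway gene tyrp1b, a tyrosinase-related protein of the melanosome, had a UMI in 168 of 169 pigment cells. Dopachrome tautomerase, dct, had one in 165 cells and pmela, which encodes the melanosome scaffold, in 159 cells. The paralogues pmelb and tyrp1a were detected in 123 and 110 pigment cells, and tyrosinase, tyr, in 86. The transporter gene oca2 and the retinoid isomerase gene rpe65a were the least often detected of the 8, in 47 and 41 pigment cells. With every barcode thinned to 800 UMIs, tyrp1b was detected in 82.8% of pigment cells, dct in 81.7%, tyr in 16.6% and rpe65a in 11.2%. The same thinned shares in the other barcodes were 3.34% for tyrp1b, 1.64% for dct, 0.0394% for tyr and 0.045% for rpe65a, at which free RNA and pigment cells below the rule cannot be told apart.

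Levels summed over pigment cells are given in CPM, the UMIs of a gene per 1000000 UMIs of the cells. For dct they were 5032, 5636 and 11932 CPM in the mCherry-enriched sort, replicates 1 to 3, and 1115, 1359 and 3217 CPM in the eGFP-enriched sort, replicates 1 to 3. Other barcodes of the same libraries had 49.0, 12.2 and 20.3 CPM of dct in the mCherry-enriched sort and 8.30, 10.5 and 39.7 CPM in the eGFP-enriched sort. The sums depend on pigment cells with few pigment transcripts. In pigment cells with at least 1% of UMIs from the 8 genes, dct had 8774, 7606 and 12556 CPM in mCherry-enriched replicates 1 to 3. It had 6619 and 8278 CPM in such cells of eGFP-enriched replicates 1 and 3. That share counts dct itself. The rpe65a sum was 115, 16.6 and 434 CPM in pigment cells of the mCherry-enriched replicates. It was 7.33, 0 and 51.7 CPM in those of the eGFP-enriched replicates, so it was uneven within each sort. In the cells with at least 1% it was 201, 26.5 and 459 CPM in the mCherry-enriched replicates. There it was 47.7 and 123 CPM in eGFP-enriched replicates 1 and 3. Among the iridophore genes of the rule, pnp4a, a purine nucleoside phosphorylase, had a UMI in 94 of 169 pigment cells. The other pair, defbl1 and apoda.1, had a UMI in 1 pigment cell each. The 64 barcodes with 2 or 3 of these genes had pnp4a at 2003 CPM, against 211 CPM in the pigment cells. In pigment cells with at least 1% of UMIs from the 8 genes it was at 766 CPM. It was detected in 75 of those 101 cells and in 49 of the 64 barcodes. The iridophore genes set both groups, so these values are a description only. Another 8 barcodes had 3 or more pigment genes but were left out because they held 2 or 3 iridophore genes.

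Cells at the edge of the rule held few pigment transcripts. The 37 barcodes with exactly 3 of the 8 genes, just inside, had a median of 1410 UMIs, of which 5 were pigment UMIs, or 0.308%. The 180 barcodes with exactly 2 of the 8 genes, just outside, had medians of 1477 UMIs, 2 pigment UMIs and a share of 0.155%. The 16 pigment cells with all 8 genes had a median of 509 pigment UMIs, or 4.59%. Barcodes of at most 100 UMIs, taken as the free RNA of each library, held between 0.0384% and 0.0926% pigment UMIs, and 15 of the 169 pigment cells were at or below the share of their own library.

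The share of pigment UMIs divided the pigment cells into unlike sets. It ran up to 11.4% of a cell's UMIs, 101 cells had at least 1%, 46 had from 0.2% to below 1% and 22 had less than 0.2%. The 13 pigment cells with more than 50000 UMIs all had less than 1% pigment UMIs, and 10 of them were at or below the free-RNA share of their library. These 13 barcodes, 11 of them in eGFP-enriched replicate 1, held 67.1% of all UMIs of the pigment cells and 78.8% of those in eGFP-enriched replicate 1. No doublet caller was run, and whether these barcodes hold several cells was not tested. Many results that sum over cells are therefore also given for the 101 cells with at least 1% pigment UMIs and for the 156 cells with at most 50000 UMIs.

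**Figure D1:**
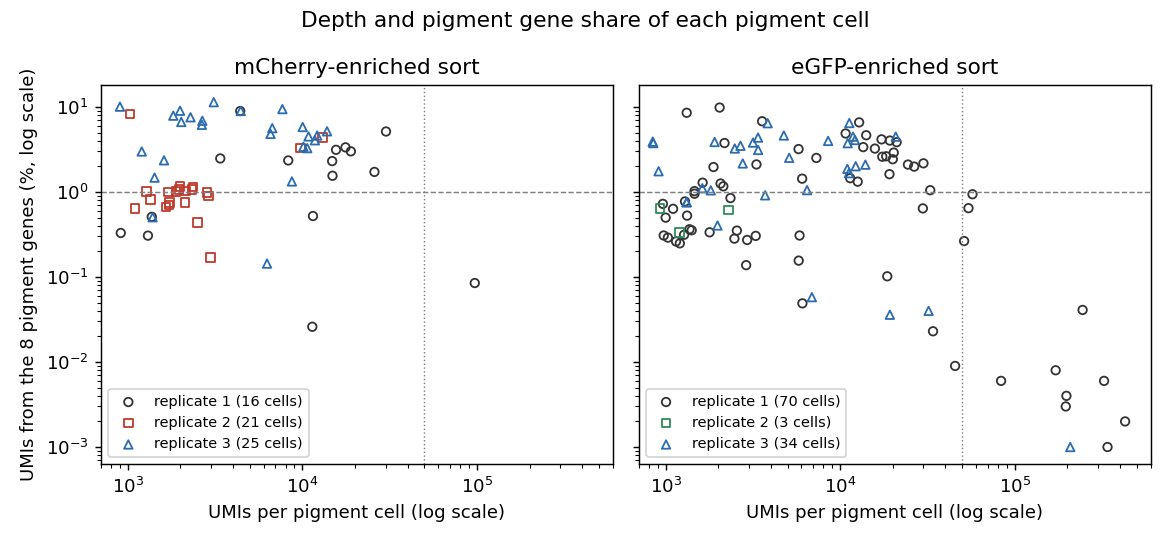
Each point is 1 pigment cell, with its UMIs on the x axis and the share of its UMIs from the 8 pigment genes on the y axis, both on log scales, in the mCherry-enriched (left) and eGFP-enriched (right) libraries. The dashed line marks 1% and the dotted line 50000 UMIs. All 13 cells right of the dotted line lie below the dashed one, and the cells of mCherry-enriched replicate 2 cluster near 1%.

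Genes that the rule did not use followed the pigment share. The 101 cells with at least 1% had a median of 7980 CPM summed over the melanosome and melanin genes outside the rule, against 1660 CPM in the 46 cells from 0.2% to below 1% and 221 CPM in the 22 cells below 0.2%. Their summed pigment epithelium genes had medians of 5772 CPM, 1366 CPM and 543 CPM in the same order. In the other barcodes, which are shallow, both lists had a median of 0 CPM per barcode. Summed per library, the other barcodes had 196 to 350 CPM of the melanosome list and 364 to 666 CPM of the pigment epithelium list. The medians of the cells below 0.2% lay within these ranges. Retinal neuron genes ran the other way, with medians of 821 CPM in cells of at least 1%, 4402 CPM in the middle band and 4479 CPM below 0.2%, against 6458 CPM in the other barcodes. Cell division genes had medians of 2257 CPM, 5748 CPM and 10258 CPM in the 3 bands, against 8130 CPM in the other barcodes. The bands also differed in depth, with medians of 6565, 1560 and 39801 UMIs per cell, and the part of depth or of doublets in these values was not tested.

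**Figure D2:**
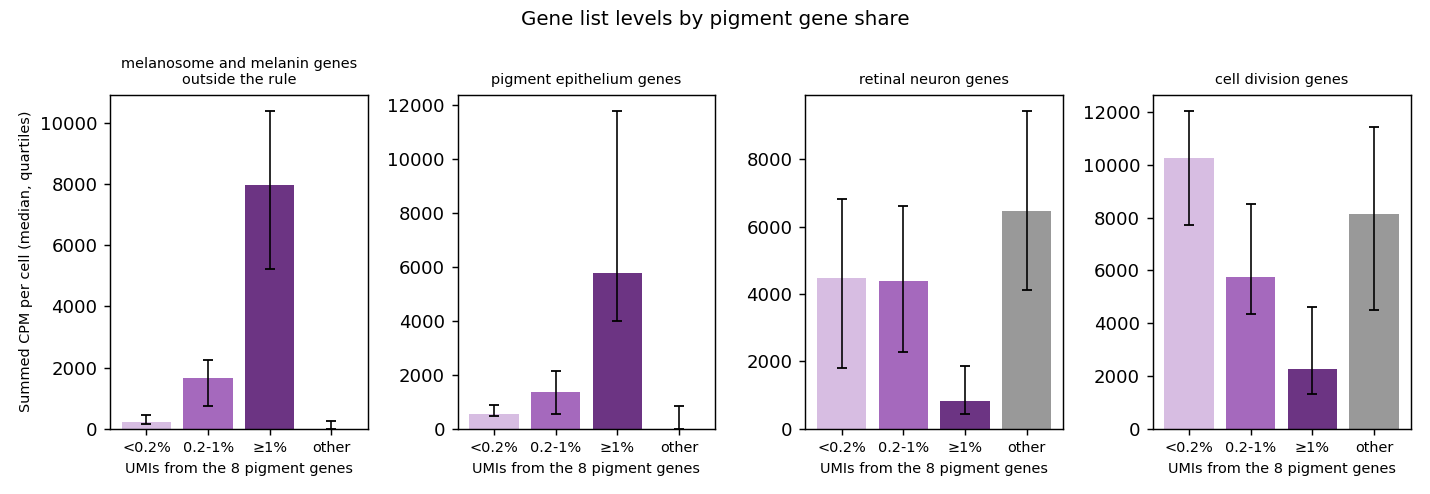
Bars give the median over cells of the summed CPM of a gene list and whiskers the quartiles, for pigment cells with less than 0.2%, 0.2 to 1% and at least 1% pigment UMIs and for the other barcodes. The melanosome and pigment epithelium sums are largest at 1% or more (7980 and 5772 CPM), where the neuron and division sums are smallest (821 and 2257 CPM).

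A library stood apart within the pigment cells. In mCherry-enriched replicate 2, 18 of 21 pigment cells formed a narrow set with 1099 to 2967 UMIs and 0.169% to 1.16% pigment UMIs. The gene cyp27c1, whose enzyme turns vitamin A1 into vitamin A2 in zebrafish, was detected in 14 of the 18 cells, against 3 of the 493 other barcodes of the library. Over all libraries, these 18 cells included, cyp27c1 was detected in 24 of the 101 pigment cells with at least 1% pigment UMIs and in 13 of the 68 below 1%. The visual cycle gene rgrb was detected in 6 of the 18, against 86 of the 101 and 23 of the 68, and rpe65a in 0 of the 18, against 38 of the 101 and 3 of the 68. The forkhead gene foxp4 was common in all of these sets, in 16 of the 18, 82 of the 101 and 50 of the 68. The shares were not tested, and these genes were named after their values had been seen, and values without this library are given below.

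Pigment cells were compared with the other barcodes of the same library in the 5 libraries with at least 10 pigment cells, which leaves out eGFP-enriched replicate 2 with its 3 cells. Melanosome transport genes, visual cycle genes and mitfa were higher in pigment cells, and neuron, blood, lens, mesenchyme and epidermis genes were lower. Of 11752 genes tested with edgeR, 831 were higher in pigment cells, or 7.07%, and 518 were lower, or 4.41%. In the cells with at least 1% pigment UMIs these counts were 1797 higher and 2895 lower of 9889 tested, and with at most 50000 UMIs they were 1698 and 2237. Leaving out mCherry-enriched replicate 1 gave 491 higher and 266 lower, and leaving out mCherry-enriched replicate 2 gave 635 higher and 194 lower.

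Of the melanosome and melanin genes outside the rule, 20 of 24 tested were higher and 1 was lower, with a median log2 fold change of 4.11, against -0.22 over all genes tested. In the cells with at least 1% pigment UMIs 21 of 23 were higher, with a median of 5.08, and with at most 50000 UMIs 21 of 24, with a median of 4.78. The gene slc45a2, whose transporter is needed for melanin and is mutated in albino fish, had 436, 580, 1295, 143 and 378 CPM in pigment cells of mCherry-enriched replicates 1, 2 and 3 and eGFP-enriched replicates 1 and 3. Its levels in the other barcodes were 8.50, 1.52, 2.16, 2.13 and 9.39 CPM in the same order of libraries. The groups did not overlap, and eGFP-enriched replicate 1, with most of the very deep barcodes, was lowest. The log2 fold change of slc45a2 was 6.45 ± 0.52 (SE, n = 5 libraries, edgeR adjusted p = 1.18e-06), or 7.37 at 1% and 7.69 with at most 50000 UMIs.

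The melanosome receptor gene gpr143, mutated in human ocular albinism, had 519, 530, 1295, 137 and 456 CPM in pigment cells and 5.85, 1.52, 1.51, 2.57 and 11.4 CPM in the other barcodes of those libraries. The cation exchanger gene slc24a5, mutated in golden fish, had 105, 199, 273, 44.0 and 74.2 CPM in pigment cells and 1.43, 0.507, 0.216, 0.247 and 1.18 CPM in the other barcodes. Both were higher in pigment cells in 5 of 5 libraries without overlap, by 6.59 ± 0.54 for gpr143 and 6.95 ± 0.48 for slc24a5 on the log2 scale (SE, edgeR adjusted p = 1.45e-06 and 3.09e-07). At 1% these differences were 7.54 for gpr143 and 8.07 for slc24a5. The tetraspanin gene tspan10 was higher by 6.37 ± 0.42 (adjusted p = 2.68e-07). The member that was lower was gpnmb, a PMEL relative that macrophages also express, at a log2 fold change of -4.01 (adjusted p = 0.0215), and DESeq2 did not call it. It was named after its value had been seen.

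**Figure D3:**
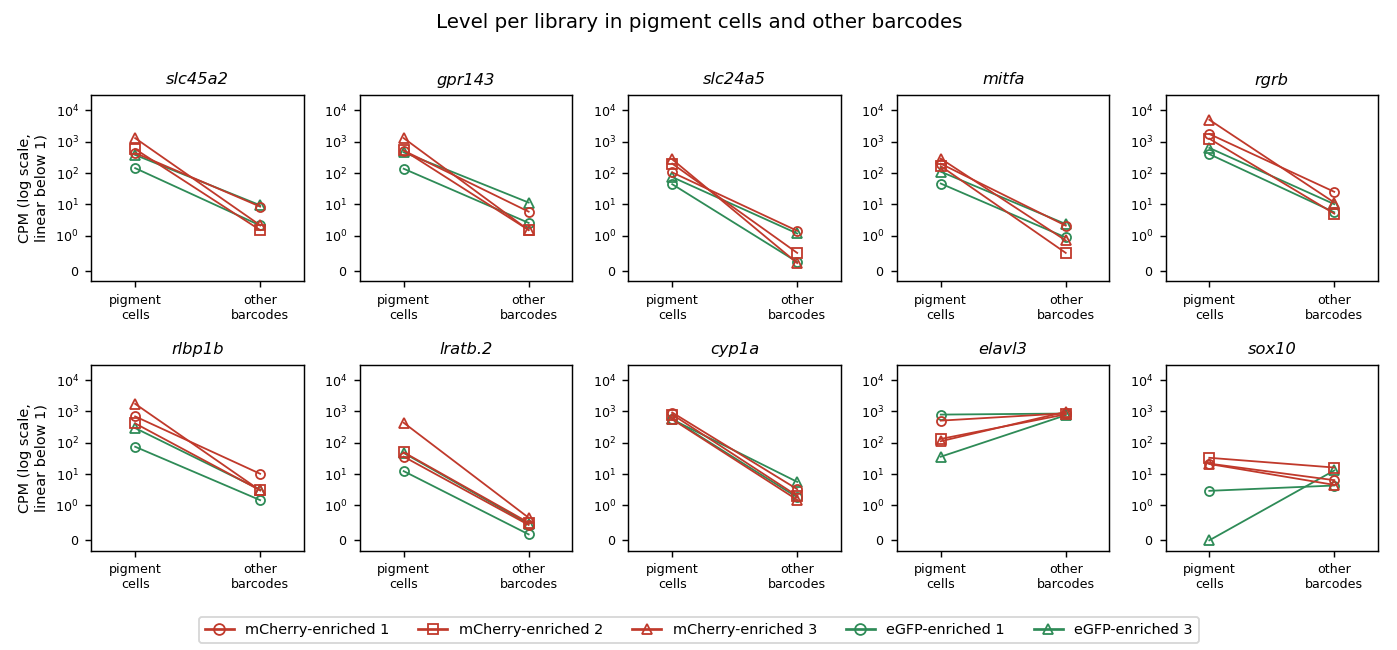
Each line joins the level of a gene (CPM, log scale, linear below 1) in the pigment cells (left) and in the other barcodes (right) of 1 library, for the 5 libraries with at least 10 pigment cells. The melanosome genes, mitfa, the visual cycle genes and cyp1a sit higher in pigment cells in every library, elavl3 sits lower in every library, and sox10 crosses.

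Of 21 visual cycle and other pigment epithelium genes tested, 14 were higher in pigment cells and 0 were lower, with a median log2 fold change of 4.64, and 17 had an unadjusted p below 0.05. In the cells with at least 1% pigment UMIs 17 were higher and 1 lower, with a median of 5.52, and with at most 50000 UMIs 17 and 0, with a median of 5.28. The gene wnt2, which encodes a secreted Wnt ligand, had 166, 398, 329, 101 and 312 CPM in pigment cells, against 0.331, 1.01, 0.648, 0.760 and 3.26 CPM in the other barcodes of the 5 libraries. Its log2 fold change was 7.46 ± 0.43 (SE, edgeR adjusted p = 1.38e-07), the highest of the list, and 8.51 at 1%. The opsin gene rgrb had 1755, 1243, 4986, 400 and 632 CPM in pigment cells and 25.2, 5.07, 11.5, 5.61 and 10.1 CPM in the other barcodes. The retinaldehyde-binding protein gene rlbp1b had 692, 414, 1744, 74.7 and 294 CPM in pigment cells and 10.3, 3.04, 3.03, 1.48 and 3.21 CPM in the other barcodes. Their log2 fold changes were 6.66 ± 0.42 for rgrb (adjusted p = 2.41e-07) and 6.56 ± 0.47 for rlbp1b (adjusted p = 4.15e-07), with no overlap between pigment cells and other barcodes, and at 1% they were 7.62 and 7.54. The 11-cis retinol dehydrogenase gene rdh5 was higher by 6.27 ± 0.48 on the same scale (adjusted p = 7.82e-07). The retinol esterifying gene lratb.2, which is not on the list, was higher by 6.83 ± 0.49 (adjusted p = 4.29e-07).

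Not every gene of the list was higher. The transcription factor gene otx2b, which photoreceptor precursors also express, averaged 437 ± 96.3 CPM in pigment cells and 334 ± 118 CPM in the other barcodes (SD, n = 5), with a log2 fold change of 0.18 ± 0.28 (adjusted p = 0.728). No UMI of the rpe65a paralogues rpe65b and rpe65c was found in pigment cells, where the other barcodes held 171 and 97 UMIs. Set against 3 UMIs over the group, these zeros put rpe65b at least 2.33-fold and rpe65c at least 1.32-fold lower, and neither gene was tested. The carrier gene ttr and the secreted factor gene serpinf1 also had 0 UMIs in pigment cells of these libraries. The other barcodes held 1 UMI of ttr and 307 UMIs of serpinf1, so the 0 of ttr says little.

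Among all genes, cyp1a, a cytochrome P450 that responds to aryl hydrocarbons, had the highest log2 fold change of those with 1 direction in every library. It had 923, 796, 560, 578 and 553 CPM in pigment cells and 3.31, 2.03, 1.51, 1.82 and 5.66 CPM in the other barcodes, a log2 fold change of 7.73 ± 0.39 (SE, edgeR adjusted p = 4.72e-08), or 8.70 at 1%. Its summed level ranged less across the libraries than that of most visual cycle genes. The very deep barcodes enter these sums unequally. They held 78.8% of the pigment cell UMIs in eGFP-enriched replicate 1 and 0% in mCherry-enriched replicates 2 and 3. Whether the level of cyp1a per cell was even was not tested. All groups had been in PTU, so any part of that treatment cannot be told apart. Next came wnt2, then tmem98, a membrane protein gene, at 7.28 ± 0.61, and after slc24a5 the myoglobin gene mb at 6.87 ± 0.44. The membrane lipid gene tm6sf2 (6.87), cracr2ab (6.85), the moesin gene msnb (6.82), the unnamed locus FO681288.1 (6.79) and the basement membrane collagen gene col4a3 (6.72) complete the 12 highest with lratb.2 and rgrb.

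The lowest genes had no UMI in the pigment cells of the 5 libraries. Set against a floor of 3 UMIs over the group, si:dkey-261h17.1 was at least 24.1-fold lower in pigment cells, aqp3a, a water channel gene, at least 20.7-fold, and pycard, an inflammasome adaptor gene, at least 14.9-fold. Likewise tnxba, a tenascin, was at least 14.0-fold lower, cnmd, a cartilage gene, at least 13.3-fold and si:dkey-5n18.1 at least 12.4-fold. The other barcodes held between 909 and 1767 UMIs of each. Their levels there differed by library, from 0.331 to 59.2 CPM for aqp3a and from 0.662 to 380 CPM for tnxba. The floor counts the UMIs of all pigment cells, most of which lay in the very deep barcodes.

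The label of melanophores was checked against neural crest and melanophore genes, of which 4 of 11 could be tested. The transcription factor gene mitfa, which melanophores need and the pigment epithelium also expresses, was higher by 6.25 ± 0.42 on the log2 scale (edgeR adjusted p = 2.68e-07, higher in 5 of 5 libraries). It was detected in 50.9% of pigment cells at a median of 3843 UMIs, against 0.377% of other barcodes at 1274 UMIs, and in 16% against 0.197% after thinning. The crest gene sox10 had 6, 2, 3, 8 and 0 UMIs in the pigment cells of the 5 libraries, with a log2 fold change of 0.04 ± 0.64 (adjusted p = 0.983). The endothelin receptor gene ednrba (3.07, adjusted p = 0.107) and the transcription factor gene tfap2e (-2.42, adjusted p = 0.0534) did not pass the test. In the cells with at least 1% pigment UMIs ednrba was higher by 4.27, from 19 UMIs in 14 of 101 cells, and tfap2e was lower by 3.57 on the log2 scale, both past the test there.

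The remaining genes of the neural crest list were at or near 0. Some were rare in the other barcodes too, with kita in 0.203% and ednrbb in 0.0169% of them, so their low counts say little. The receptor kinase gene kita, which melanophores need, had 3 UMIs in 3 of 169 pigment cells (ratio to the other barcodes 1.63, 95% exact counting interval 0.324 to 5.08). No pigment cell held a UMI of crestin, erbb3b, ednrbb, foxd3 or snai2, which allows up to 1.78% of cells with a UMI of each and does not limit the share of cells that express it. In the 64 barcodes with 2 or 3 iridophore genes, crestin was detected in 13 and sox10 in 18, at a median of 5522 UMIs. The other 6 of the 11 genes were detected, mitfa in 86, tfap2e in 23, ednrba in 15, sox10 in 13, kita in 3 and snai1b in 1 of the 169 cells. No set of melanophores was named from these markers, and the cells are called pigment cells here.

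Pteridine, purine and lysosome genes gave a mixed picture. Of 7 xanthophore and pteridine genes tested, 3 were higher and 0 lower, with a median of 2.99. These were qdpra (5.91 ± 0.50) and pcbd1 (5.10 ± 0.45), which recycle tetrahydrobiopterin, and the transporter gene slc2a15b (4.87 ± 0.63). In the cells with at least 1% pigment UMIs 5 of 6 genes of this list were higher, with a median of 4.92. With at most 50000 UMIs 4 of 6 were higher, with a median of 5.04. The list member gch2 did not pass in all pigment cells (2.99, edgeR adjusted p = 0.0532) but did at 1% (3.91, adjusted p = 1.9e-08). It was named after its value had been seen. The xanthophore genes xdh and aox5 had 0 UMIs in pigment cells. Of 12 iridophore and purine synthesis genes outside the rule, 0 passed with edgeR or DESeq2 in either direction and 2 had an unadjusted p below 0.05, and their median was -0.07. Of 37 proton pump and lysosome genes, which acidify and fill lysosome-related organelles, 21 were higher and 2 lower, with a median of 1.13. The pump subunit genes atp6v0a2b (4.76 ± 0.49), atp6v1e1a (3.05 ± 0.38), atp6ap1b (2.91 ± 0.36) and atp6v0a1a (2.80 ± 0.42) changed most.

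**Figure D4:**
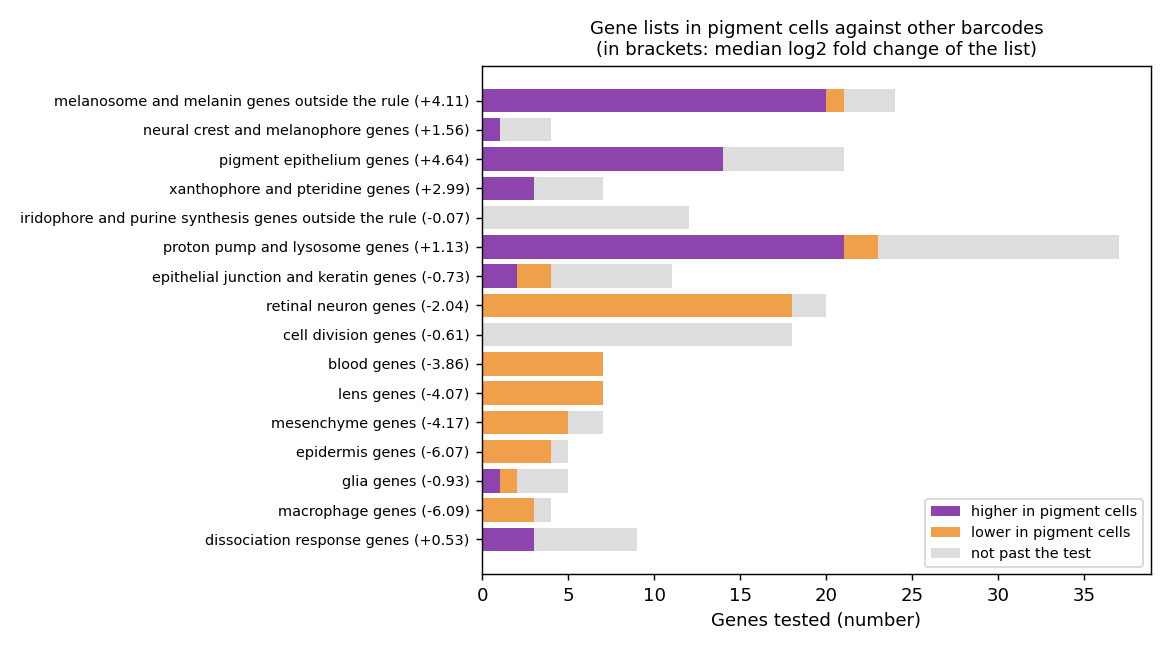
Bars count the genes of each list that were higher, lower or not past the edgeR test in pigment cells against other barcodes, with the list's median log2 fold change in brackets. The melanosome list (20 of 24) and the pigment epithelium list (14 of 21) are mostly higher, and the neuron list (18 of 20) mostly lower.

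Markers of other eye cells were mostly lower. Of 20 retinal neuron genes, 18 were lower and 0 higher, with a median of -2.04, and in the cells with at least 1% pigment UMIs 19 of 20 were lower with a median of -3.60. The neuron gene elavl3 had 508, 133, 112, 792 and 36.0 CPM in pigment cells and 870, 807, 963, 855 and 756 CPM in the other barcodes. Its level was lower in pigment cells in each library, but least so in eGFP-enriched replicate 1, where the very deep barcodes lie. The neuron genes that changed most were stmn2a (-2.84), elavl4 (-2.74), snap25a (-2.49) and isl1 (-2.49).

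All 7 blood genes and all 7 lens genes tested were lower, as were 5 of 7 mesenchyme, 4 of 5 epidermis and 3 of 4 macrophage genes. In other barcodes, epidermis genes ran from 2.32 CPM in mCherry-enriched replicate 1 to 5226 CPM in eGFP-enriched replicate 3. Mesenchyme genes ran from 1.66 to 1031 CPM in the same 2 libraries. In mCherry-enriched replicate 1 both sums were nominally higher in pigment cells, at 7.21 and 3.60 CPM. Each came from 1 gene and lay below the 10.8 CPM that 3 UMIs give there, so no direction can be read from them. The ratios below pool the libraries, so libraries with high levels weigh most. With DESeq2, 5 blood, 5 lens, 1 mesenchyme, 1 epidermis and 0 macrophage genes were lower. The haem synthesis gene alas2 had 0 UMIs in pigment cells and was at least 6.84-fold lower, and the globin genes hbae3 (-4.05), hbbe1.1 (-3.99) and hbbe1.2 (-3.86) were lower, although hbae3, with 1 UMI in its pigment cells, was higher in eGFP-enriched replicate 3. Blood genes summed to 11638 CPM in pigment cells of mCherry-enriched replicate 2, against 13420 CPM in its other barcodes, so blood RNA was present there in both. Among lens genes, lim2.4 was lower, with 1 UMI in pigment cells and a ratio to the other barcodes of 0.01 (95% exact counting interval 0.000253 to 0.0557), as was mipa, with 2 UMIs and a ratio of 0.0294 (0.00355 to 0.106). The crystallin genes cryba1b (-4.14) and crybb1 (-4.07) were also lower.

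Among mesenchyme genes, the collagen gene col1a2 was lower (-6.28) and prrx1a had 0 UMIs in pigment cells (at least 10.7-fold lower). The collagen gene col1a1a and the transcription factor gene foxc1b had 1 UMI each in pigment cells, with ratios of 0.00284 (7.19e-05 to 0.0158) and 0.0345 (0.000872 to 0.193). The keratin genes krt4 (-6.23), krtt1c19e (-6.07) and cyt1 (-5.84) were lower in pigment cells, as was krt5, with 3 UMIs and a ratio of 0.00705 (0.00145 to 0.0206). Among macrophage genes, coro1a and mpeg1.1 had 0 UMIs in pigment cells, at least 8.24-fold and 4.62-fold lower, and lcp1 had 1 UMI (ratio 0.0432, interval 0.00109 to 0.242) and was higher in 1 of the 5 libraries.

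Of 5 glia genes, glula, glutamine synthetase, was higher (2.63 ± 0.49) and the glutamate transporter gene slc1a2b was lower (-1.83 ± 0.49). Of 11 epithelial junction and keratin genes, cldn19, a tight junction gene, was higher by 5.49 ± 0.62 and cldn5a by 1.59 ± 0.33, while cldn5b (-1.63 ± 0.48) was lower, as was epcam, with 2 UMIs in pigment cells and a ratio of 0.0214 (0.00259 to 0.0775). Of 18 cell division genes, 0 passed with edgeR or DESeq2, with 1 at an unadjusted p below 0.05 and a median of -0.61. In the cells with at least 1% pigment UMIs 16 of the 18 were lower, with a median of -1.98, and with at most 50000 UMIs 12 were.

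Genes that respond to dissociation were measured alongside, since they can move with handling. Of 9 tested, 3 immediate-early genes were higher in pigment cells and 0 lower, namely egr1 (2.16 ± 0.53), fosb (1.59 ± 0.38) and fosab (1.5 ± 0.33). Without mCherry-enriched replicate 1 the calls of fosb and fosab were lost, and without mCherry-enriched replicate 2 that of egr1. Their part in the other results was not tested.

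Within the pigment cells, those with a UMI of rpe65a were compared with the rest, in the 4 libraries with at least 5 cells of both kinds. The retinoid genes lratb.2, rlbp1b, rdh5, stra6, rgrb and rbp5 were higher in the rpe65a-detected cells, and grem2b, slc38a8a, nanos1 and foxp4 were lower. Cells with rpe65a numbered 6, 15, 9 and 10 in mCherry-enriched replicates 1 and 3 and eGFP-enriched replicates 1 and 3, against 10, 10, 61 and 24 without. All 41 rpe65a-detected cells had a median of 7673 UMIs and 4.00% pigment UMIs, against 3067 UMIs and 0.990% in the 128 others. Detection thus moved with depth and with the pigment share, which counts rpe65a itself. Among cells of at least 1% pigment UMIs, the medians were 7119 UMIs and 4.05% with rpe65a, against 6056 UMIs and 2.35% without. The part of depth and of pigment share in the differences below was not tested. Of 2638 genes tested, 14 were higher, or 0.531%, and 4 were lower, or 0.152%. Without eGFP-enriched replicate 1 edgeR called 0 genes, with 108 at an unadjusted p below 0.05, and without mCherry-enriched replicate 3 it called 4 higher and 1 lower. With every cell thinned to 800 UMIs the counts were 11 higher and 10 lower of 174 tested, in cells of at least 1% pigment UMIs 42 and 52 of 1603, and with at most 50000 UMIs 95 and 186 of 1841. The setting of at least 1% pigment UMIs took libraries with at least 3 cells of both kinds, not 5.

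Of 12 pigment epithelium genes tested in this comparison, 5 were higher and 0 lower, with a median log2 fold change of 0.84 against -0.03 over all genes. Of the 5, rlbp1b, rdh5, stra6 and rgrb are named below. The esterifying enzyme gene lratb.2, which is not on that list, was higher too. It had 53.7, 657, 58.9 and 379 CPM in rpe65a-detected cells of the 4 libraries and 9.09, 56.6, 0.915 and 0 CPM in the other pigment cells. Its log2 fold change was 5.20 ± 0.76 (SE, edgeR adjusted p = 0.0134). The ranges touched, since mCherry-enriched replicate 3 had a higher level in its cells without rpe65a than mCherry-enriched replicate 1 in its cells with it. The gene rlbp1b had 973, 2638, 263 and 1929 CPM in rpe65a-detected cells and 264, 227, 27.9 and 61.6 CPM in the others, a log2 fold change of 3.33 ± 0.45 (adjusted p = 0.0134), with ranges that met at 263 and 264 CPM. The retinol dehydrogenase gene rdh5 (3.11 ± 0.53), stra6 (2.53 ± 0.40), the receptor gene for retinol-binding protein, and rgrb (2.31 ± 0.37) were also higher, each in 4 of 4 libraries. For rdh5, stra6 and rgrb too, the ranges over libraries overlapped between the groups. The paralogue rlbp1a was not past the test, at -0.17 (adjusted p = 0.999).

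Further genes outside that list were higher. The retinol-binding protein gene rbp5 had 1242, 3729, 258 and 1713 CPM in rpe65a-detected cells and 90.9, 698, 39.3 and 48.8 CPM in the others (log2 fold change 3.37 ± 0.41, edgeR adjusted p = 0.00884). The fatty acid-binding protein gene fabp11b had 8664, 21239, 2119 and 17648 CPM in rpe65a-detected cells and 1664, 2360, 398 and 562 CPM in the others (3.14 ± 0.37, adjusted p = 0.00884). Its lowest rpe65a-detected library, eGFP-enriched replicate 1, overlapped the others' range, as did that of rbp5. Starmaker, stm, a protein known from the zebrafish otolith, was higher by 4.65 ± 0.87, mb by 3.78 ± 0.54, col4a3 by 3.45 ± 0.57, zgc:195173 by 2.70 ± 0.39 and tm6sf2 by 2.42 ± 0.34. The ranges of stm, zgc:195173 and tm6sf2 overlapped between the groups, and those of mb and col4a3 did not.

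The 4 genes lower in rpe65a-detected cells were expressed in the other pigment cells of every library. The BMP antagonist gene grem2b had 5.97, 0, 0 and 0 CPM in rpe65a-detected cells, from 1 UMI, and 527, 75.5, 70.4 and 53.9 CPM in the others, from 237 UMIs. The ratio of the summed levels was 0.0135, with a 95% exact counting interval from 0.00034 to 0.076. The amino acid transporter gene slc38a8a had 0, 0, 1.84 and 0 CPM in rpe65a-detected cells, also from 1 UMI, and 72.7, 189, 50.8 and 87.3 CPM in the others, from 163 UMIs (ratio 0.0196, interval 0.000494 to 0.111). The groups did not overlap for either gene.

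The RNA-binding protein gene nanos1 had 17.9, 33.4, 20.3 and 54.1 CPM in rpe65a-detected cells and 209, 472, 124 and 118 CPM in the others (-2.86 ± 0.48, edgeR adjusted p = 0.0262). The level of foxp4 was 358, 312, 201 and 306 CPM in rpe65a-detected cells and 1737, 1567, 534 and 899 CPM in the others (-1.95 ± 0.28, adjusted p = 0.0134). Neither gene overlapped between the groups. For cyp27c1, which was named after its values had been seen, the rpe65a-detected cells held 2 UMIs and the others 94 (ratio 0.0681, interval 0.00813 to 0.253), which did not pass the test (edgeR adjusted p = 0.103) but did in cells of at least 1% pigment UMIs (adjusted p = 0.00815). It was lower in 4 of 4 libraries.

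Melanosome and melanin genes outside the rule did not separate these cells by the test. Of 13 tested, 0 passed with edgeR in either direction, 2 had an unadjusted p below 0.05, DESeq2 called 1 higher, and their median was 0.59. With at most 50000 UMIs 6 of the 13 were higher. The rule's own dct, also described without a test, averaged 6893 ± 5191 CPM in rpe65a-detected cells and 4443 ± 3348 CPM in the others (SD, n = 4). Of 17 neuron genes and 16 division genes, 0 passed with edgeR or DESeq2, with 1 and 3 at an unadjusted p below 0.05 and medians of 0.46 and -0.86, but with at most 50000 UMIs 6 of 8 division genes tested were lower in rpe65a-detected cells.

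**Figure D5:**
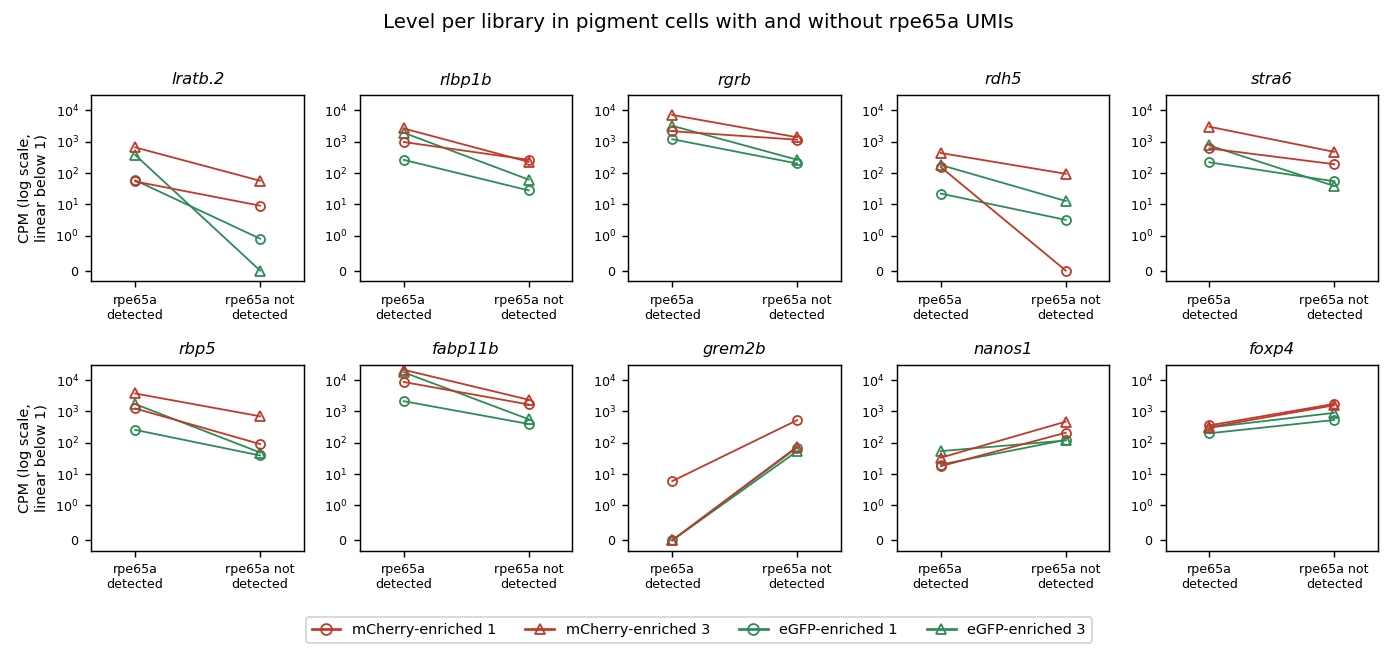
Each line joins the level of a gene (CPM, log scale, linear below 1) in pigment cells with an rpe65a UMI (left) and without one (right) in 1 of the 4 libraries with at least 5 of both. The 7 genes from lratb.2 to fabp11b are higher in rpe65a-detected cells in every library, and grem2b, nanos1 and foxp4 are lower in every library.

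The sorts were compared in their share of pigment cells and in the levels within those cells. Pigment cells made up 2.19% (95% exact interval 1.26 to 3.54%), 4.09% (2.55 to 6.18%) and 2.05% (1.33 to 3.01%) of barcodes in mCherry-enriched replicates 1, 2 and 3. They made up 0.579% (0.451 to 0.731%), 0.809% (0.167 to 2.34%) and 1.13% (0.786 to 1.58%) in eGFP-enriched replicates 1, 2 and 3. The intervals cover counting error only. The study removed empty droplets before filtering, a step not run here, so the barcodes passing may include such droplets. Of the 17930 barcodes passing, 12094 lay in eGFP-enriched replicate 1, where the other barcodes had a median of 560 genes. On average, pigment cells made up 2.78 ± 1.14% of mCherry-enriched barcodes and 0.840 ± 0.278% of eGFP-enriched barcodes (SD, n = 3 each). The groups did not overlap. The difference was 1.94 percentage points, with p = 0.1 in a two-sided exact permutation test, the smallest value that 3 against 3 libraries can give. Counting only cells with at least 1% pigment UMIs, the means were 1.73 ± 0.32% in mCherry-enriched and 0.377 ± 0.444% in eGFP-enriched libraries, with the same exact p of 0.1. With barcodes of at least 1000 genes the groups overlapped, at 3.46%, 2.29% and 3.35% in mCherry-enriched replicates and 2.37%, 0% and 1.04% in eGFP-enriched replicates, a difference of 1.90 points (exact permutation p = 0.2). The gates set which cells enter a library, and the methods of the study describe pigmented cells as autofluorescent and sorted in error, so gate, autofluorescence and reporter cannot be told apart in these shares.

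Between the pigment cells of the mCherry-enriched and eGFP-enriched sorts, edgeR called 43 genes higher (1.64%) and 6 lower (0.229%) of 2621 tested, but these calls rested on few cells. The 3 pigment cells of eGFP-enriched replicate 2 held 4415 UMIs, and without that library 0 genes passed, with 534 at an unadjusted p below 0.05. With cells of at least 1% pigment UMIs or at most 50000 UMIs the count was also 0, with 141 and 118 genes at an unadjusted p below 0.05. The basement membrane collagen genes were among the first by p, with col4a3 at 151, 199 and 476 CPM in pigment cells of the mCherry-enriched replicates and 18.7, 0 and 13.5 CPM in those of the eGFP-enriched replicates. The partner gene col4a4 had 198, 282 and 658 CPM in mCherry-enriched and 26.4, 0 and 40.5 CPM in eGFP-enriched pigment cells. Among cells with at least 1% pigment UMIs the log2 fold changes were 2.08 for col4a3 and 1.85 for col4a4, neither past the test, against 4.03 and 3.58 in all pigment cells.

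The receptor gene notch3 was lower in the mCherry-enriched pigment cells, with 10.8, 16.6 and 21.0 CPM against 247, 906 and 229 CPM in the eGFP-enriched ones (-4.17 ± 0.64, edgeR adjusted p = 0.00814). The value of 906 CPM came from 4 UMIs, and the mCherry-enriched values from 7 UMIs in all. With at most 50000 UMIs the log2 fold change of notch3 was -2.75 (edgeR adjusted p = 0.111). The dehydrogenase gene dhrsx (3.63 ± 0.58) and egr1 (3.03 ± 0.56) were higher. None of the 5 genes named here passed the test without eGFP-enriched replicate 2. The genes of the rule had not been left out of this comparison.

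Reporter transcripts were scarce in pigment cells. The eGFP transcript had 4, 0, 8, 69, 0 and 23 UMIs in pigment cells of mCherry-enriched replicates 1 to 3 and eGFP-enriched replicates 1 to 3, and 55 of the 69 lay in the very deep barcodes. Its level averaged 24.6 ± 24.6 CPM in pigment cells and 25.04 ± 16.9 CPM in the other barcodes (SD, n = 6 libraries), a difference of -0.47 CPM with p = 0.938 in a two-sided exact sign-flip permutation test. It was higher in pigment cells in 3 of 6 libraries. The direction turned in the cells with at least 1% pigment UMIs, with 41.2 ± 39.1 CPM in pigment cells and 28.1 ± 16.8 CPM in the other barcodes (SD, n = 5 libraries, difference 13.1 CPM, exact sign-flip permutation p = 0.438), and the difference was 7.0 CPM with at most 50000 UMIs. An eGFP UMI was found in 21.3% of pigment cells and 5.91% of other barcodes, but in 1.78% and 1.19% after thinning to 800 UMIs. The mCherry transcript had 5 UMIs in 3 pigment cells, all in eGFP-enriched libraries, and averaged 0.932 ± 1.80 CPM in pigment cells and 2.90 ± 4.07 CPM in the other barcodes (exact sign-flip permutation p = 0.375). The 101 cells with at least 1% pigment UMIs held 0 mCherry UMIs, which allows a share of up to 2.97% of cells with a UMI.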

How the data were processed

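Cells sorted from 48 hpf eyes were profiled by 10x Genomics 3′ single-cell RNA-seq in 6 libraries. The files, as the authors deposited them, hold UMI counts of 25109 genes in every barcode, neither filtered nor normalised, made with Cell Ranger on GRCz11 to which eGFP and mCherry had been added. The submitters' processing notes name Cell Ranger 6.1.2, whereas the headers of the count files name another version. No clusters or annotations of the authors were used.

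Barcodes were filtered as in the report, without a call of empty droplets, and summed per library and class. Sums were tested with edgeR 4.0.16 (TMM, quasi-likelihood, the library as a covariate for contrasts within libraries, Benjamini-Hochberg adjustment over all genes tested, threshold 0.05) in R 4.3.3, after edgeR's filter on low counts. Genes of the rule counted towards library sizes and were not tested within libraries, but they were not left out of the test between sorts. Sorts were compared without a block. DESeq2 1.42.0, thinning, stricter rules and left-out libraries were alternatives. The settings of at least 1% pigment UMIs and at most 50000 UMIs were chosen after seeing the data. Tests were checked on simulated data. CPM are UMIs per 1000000 UMIs of the class. Whether equal replicate numbers mark a shared round of sorting is not given in the labels, so they paired no libraries.

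The genes named are the rule genes, the reporters, the 12 highest and 6 lowest log2 fold changes among genes past 0.05 with 1 direction in every library, up to 5 genes by p between sorts, and the 4 largest changes of each list. Further genes outside this selection are also named, and only some of them are marked where they appear. Those without a mark include otx2b, rpe65b, rpe65c, ttr, serpinf1, elavl3, rlbp1a, xdh, aox5 and the neural crest genes other than mitfa. Other genes measured alongside them, such as best1, mertka, kcnj13 and slc16a8, are not reported. The members and the gene lists were chosen with earlier results of these data known.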

Additional observations from a re-analysis of the deposited data

Results flagged for a closer look

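The mCherry transcript was flagged for differing between the sorts, on too few UMIs to give a direction in either. It was lower in pigment cells than in other barcodes in all 3 mCherry-enriched libraries (0, 0 and 0 CPM in pigment cells, against 10.2, 0.507 and 5.40 CPM) and higher in eGFP-enriched replicates 1 and 3 (1.1 and 4.50 CPM in pigment cells, against 0.627 and 0.708 CPM). Over 5 libraries its log2 fold change was -0.17. The values in pigment cells rest on 5 UMIs, of which 4 lay in barcodes with more than 50000 UMIs, and counts of 0 in the mCherry-enriched libraries allow up to 10.8, 49.7 and 21.0 CPM there (3 UMIs per library), so these zeros are not a detectable difference. The difference between the sorts was not tested.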

How the results depend on the processing

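The libraries held 3 to 70 pigment cells each. Against other barcodes, genes higher and lower were 452 and 927 after thinning, 1370 and 1346 with at least 4 pigment genes, 543 and 145 with at least 1000 genes, 1797 and 2895 with at least 1% pigment UMIs and 1698 and 2237 with at most 50000 UMIs, and lower genes were 997 without a filter. Leaving out 1 library gave 491 to 918 higher and 194 to 593 lower. Between rpe65a-detected and other pigment cells they were 25 and 11 with DESeq2, 29 and 36 without a filter, 42 and 52 at 1% and 95 and 186 with at most 50000 UMIs. Lower genes were 10 after thinning and 27 with at least 4 pigment genes, and leaving out 1 library gave 0 to 20 higher and 0 to 8 lower.

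Between sorts, 0 genes passed in either direction after thinning (3 with unadjusted p below 0.05), with at least 4 pigment genes (70), with libraries of at least 10 pigment cells (534), at 1% (141) or with at most 50000 UMIs (118). DESeq2 called 1 lower, and 27 were lower without a filter. Leaving out 1 library gave 0 to 126 higher and 0 to 43 lower. With the replicate number as a block, 149 were higher and 29 lower. Same-numbered libraries had correlations of 0.19, 0.07 and 0.02 in their deviations from the group means. For mCherry-enriched replicate 3 the highest was 0.025, with eGFP-enriched replicate 2. Values this small and close cannot tell whether equal numbers mark a shared round. The paper describes samples of both sorts from each round, so pairs may exist. The main tests did not use them. The block gave an exact p of 0.25 for the share difference of 1.94 points, the smallest that 3 pairs allow. The share difference kept its sign in every alternative run (1.28 to 2.30 without 1 library), but with at least 1000 genes the sorts overlapped (exact p of 0.2).

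The eGFP difference changed sign, to 12.3 CPM with at least 4 pigment genes, 13.1 CPM at 1% and 7.0 CPM with at most 50000 UMIs, and ran from -3.30 to 3.11 CPM without 1 library. None passed its test. For these changes the cause was not tested.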
